A study of Tachysurus fulvidraco x Tachysurus vachelli with 6 samples.

Results

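The genes of heme synthesis, hemoglobin and iron handling were examined in the gill of juvenile hybrid yellow catfish after transport. The set holds 65 of the 25792 genes in the deposited table. Of these, 35 carried the KEGG pathway number 00860 (porphyrin metabolism), and 30 were taken by a product name containing hemoglobin subunit, ferritin, transferrin, mitoferrin or hepcidin. Glucuronosyltransferases, tRNA ligases and hmox1 are outside the set. A further 4 rows, for pyruvate dehydrogenase kinases and a phosphatase, matched the word transferrin only through the term acetyl-transferring and were set aside. Of the 65 genes, 44 carry a locus number only and are named here with their deposited product.

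The 6 libraries came from the second left gill of juvenile offspring of Tachysurus fulvidraco females and P. vachellii males. In 3 of them the fish had been transported for 16 h, and the fish of the other 3 were untreated controls. Whether each library stands for a single fish or for pooled fish is not in the labels. The p-values set the difference between the groups against the spread between these 6 libraries. Some of that spread may be technical, and whether it stands for the spread between single fish is not known. Each library held between 42962760 and 58495713 estimated counts. Levels are given as deposited FPKM, a fragment count scaled by transcript length and library size, in the order of replicates 1, 2 and 3.

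Gill markers were abundant in every library. The ammonia channel gene rhcg stood between 112 and 175 FPKM and the gill and parathyroid regulator gene gcm2 between 89.2 and 114 FPKM, whereas the ionocyte regulator gene foxi3 was listed at 0 in 5 of the 6 libraries. Markers of skeletal muscle varied without following the groups: the summed FPKM of 47 such genes was 402, 1563 and 2583 after transport and 2876, 552 and 563 in the controls. In whole gill tissue, fewer cells of a type and less RNA per cell cannot be told apart.

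Heme is built in a chain of enzymes that starts in the mitochondrion with 5-aminolevulinate synthase, runs through the cytosol and ends in the mitochondrion, where ferrochelatase inserts iron into the porphyrin ring. Most heme of a fish is made in red blood cells for hemoglobin, and fish red cells keep their nucleus and go on carrying transcripts while they circulate through the gill. Iron enters cells bound to transferrin, reaches the mitochondrion through mitoferrins, is stored in ferritin, and is controlled in the whole body by the hormone hepcidin.

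After transport 2 enzyme genes of heme synthesis, the mitochondrial iron importer gene slc25a37 and 2 ferritin genes were higher, and no gene of the set was called lower. Of the 65 genes, 59 had enough counts to be tested. At an adjusted p under 0.05 by edgeR's quasi-likelihood test, 5 of the 59 were called, all higher, a share of 8.47%. Among all 20771 genes tested the share called was 6.69%, with 3.23% higher and 3.46% lower. Over both directions the share in this set thus lies near that of all genes. For higher calls alone it was 8.47% against 3.23%, a difference that rests on 5 genes and was not tested. At an unadjusted p under 0.05, 14 genes of the set (23.7%) were higher and 5 (8.47%) lower, against 12.3% and 12.7% of all genes. DESeq2, run over the table without that count filter, called 9 higher and 2 lower of 60 genes with an adjusted p (15% and 3.33%), against 7.03% and 7.69% of 21990 genes in all. The 59 log2 fold changes had a median of 0.11, with 32 positive and 27 negative, against a median of 0.00 over all genes tested.

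Leaving out a library changed the calls across the whole table and in this set, in most fits downwards. The exception over the whole table was the fit without control replicate 1. It gave 659 genes higher and 839 lower, against 671 and 718 with all libraries. Without transport replicate 2, 2 genes were called higher and 1 lower of 21323 (0.00938% and 0.00469%), and none of them was in the set. Without transport replicate 1, 1.09% of all genes were called higher and 0.775% lower, and without transport replicate 3 the shares were 0.417% and 0.342%. hmbs was the only gene of the set called in each of these fits. Without control replicate 1 the shares were 3.08% and 3.93%, and without control replicate 3 they were 0.966% and 0.802%. In both, the genes of the set were hmbs and the ferritin gene LOC113654112, each higher. Without control replicate 2, 2.23% of all genes were called higher and 2.17% lower, and of the set 6 of 61 (9.84%) were higher and 1 (1.64%) lower. All 5 genes kept their direction in each of these fits.

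**Figure D1:**
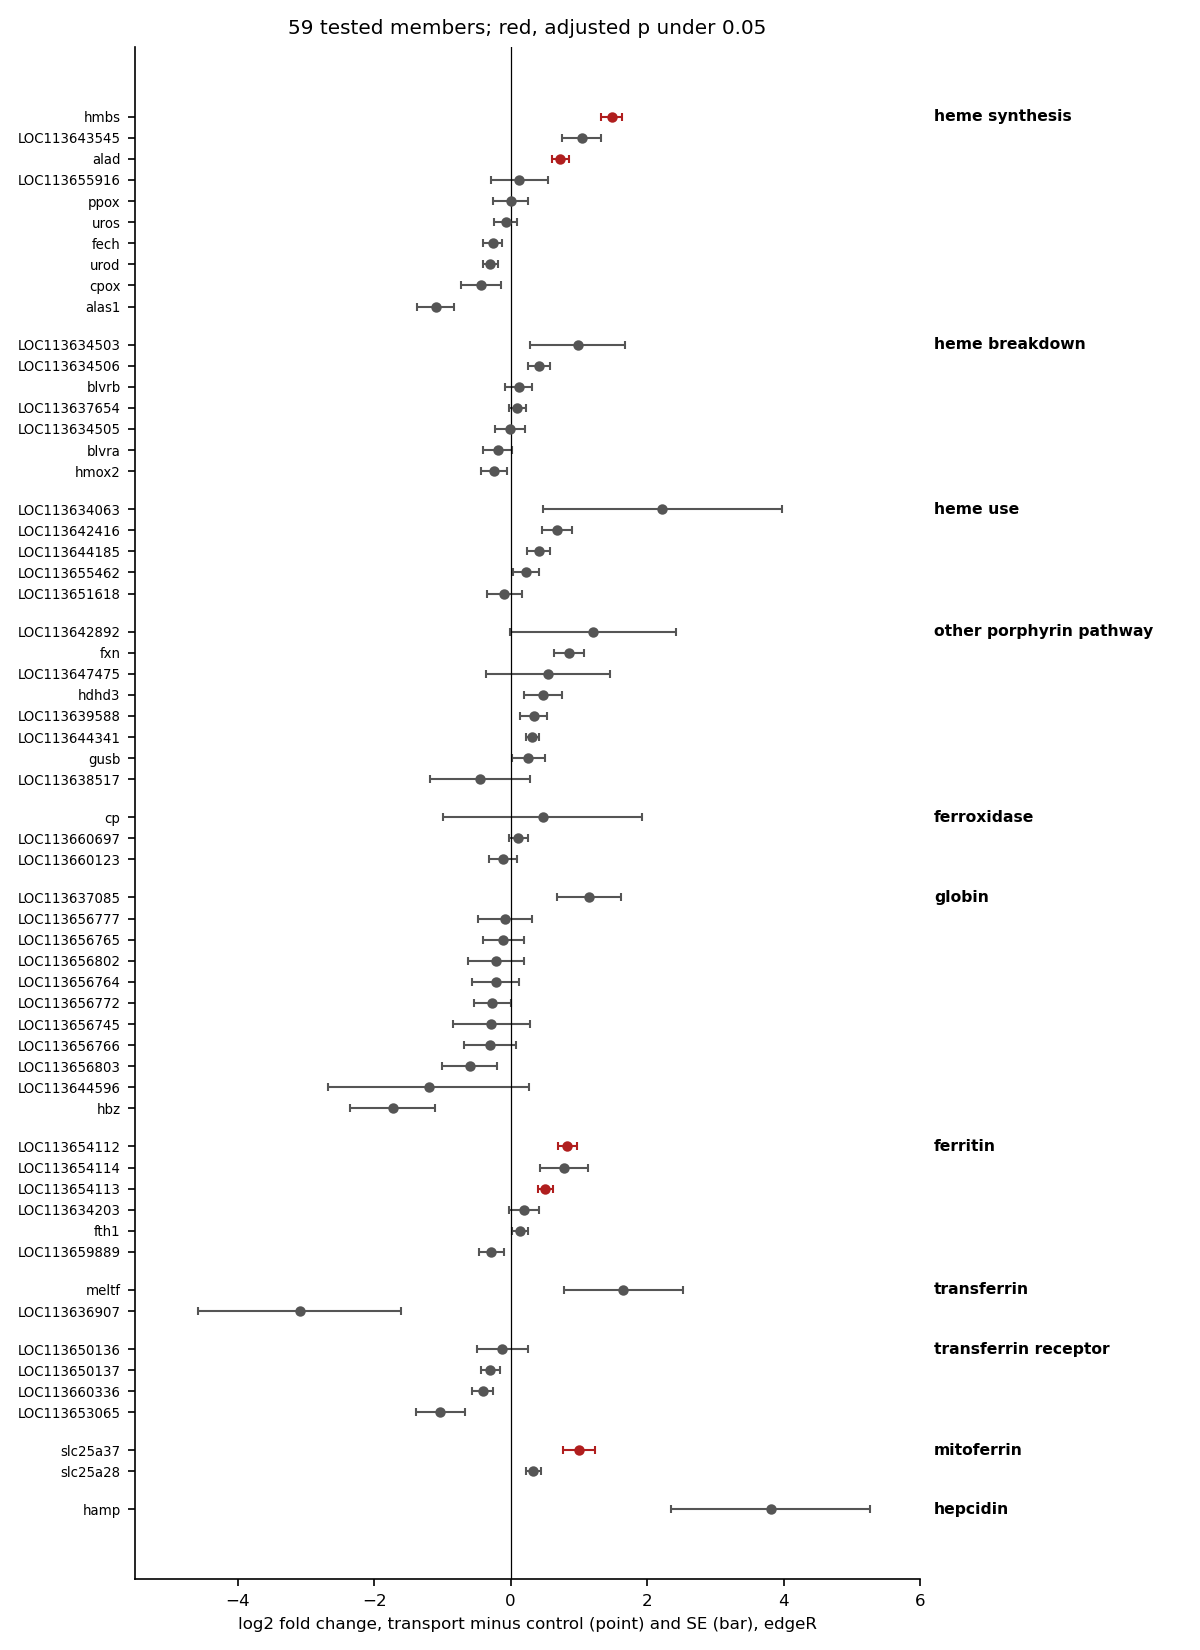
Log2 fold change (transport minus control) with its standard error for each of the 59 tested genes, grouped by role; red marks the 5 genes with an edgeR adjusted p under 0.05. The red genes are hmbs and alad among the enzymes, LOC113654112 and LOC113654113 among the ferritins, and slc25a37, and all lie to the right of 0.

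Along the heme synthesis chain the enzymes did not move together: 5 of the 10 log2 fold changes were positive and 5 negative, and the median was -0.03. The gene with the clearest difference was hmbs (NW_020847967.1, 1548010 to 1560263), which encodes porphobilinogen deaminase, the enzyme that links 4 porphobilinogen units into a linear tetrapyrrole. Its level was 10.9, 11.7 and 10.8 FPKM after transport, against 4.23, 3.25 and 4.39 FPKM in the controls. Every transport library lay more than 2-fold above every control. hmbs rose by 1.48 on the log2 scale (SE 0.15, edgeR adjusted p = 0.00847), a 2.78-fold difference. A second gene with the same enzyme name, LOC113643545 (NW_020847763.1, 11073982 to 11084148), stood at 2.02, 3.58 and 3.44 FPKM after transport, against 1.17, 1.52 and 1.65 FPKM in the controls. These groups did not overlap either, but the gene was not called (edgeR adjusted p = 0.0811, DESeq2 adjusted p = 0.0248). Summed over both genes, porphobilinogen deaminase transcripts amounted to 14.2 ± 1.19 FPKM after transport and 5.40 ± 0.635 FPKM in the controls (SD, n = 3 each).

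The preceding enzyme, delta-aminolevulinic acid dehydratase, which joins 2 molecules of aminolevulinate into porphobilinogen, is encoded by alad (NW_020847784.1, 546428 to 553762). alad was at 28.6, 25.6 and 23.1 FPKM after transport, against 15.5, 17.1 and 13.4 FPKM in the controls. It rose by 0.73 on the log2 scale (SE 0.13, edgeR adjusted p = 0.0296), and the groups did not overlap. Without control replicate 2 it was still called (edgeR adjusted p = 0.0389), and leaving out any of the other 5 libraries ended the call (up to 0.141).

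The first enzyme of the chain has 2 genes, and their levels differed in pattern. The ubiquitous form, alas1 (NW_020848204.1, 368934 to 378149), was at 89.9, 102 and 95.5 FPKM after transport, against 159, 301 and 149 FPKM in the controls. All transport libraries were below all controls, and control replicate 2 stood far above the other controls. Its log2 fold change of -1.10 (SE 0.27) did not pass (edgeR adjusted p = 0.0570), although it did without control replicate 2 (edgeR adjusted p = 0.0286, against up to 0.192 without another library), with counts divided by 4 (0.0492) and with DESeq2 (adjusted p = 0.000328). The erythroid-specific form, LOC113655916 (NW_020847974.1, 4796659 to 4804109), was at 52.6, 44.3 and 41.0 FPKM after transport, against 26.8, 73.7 and 24.3 FPKM in the controls. Here the same control replicate 2 lay above all transport libraries and the remaining controls lay below them. The gene was not called (edgeR adjusted p = 0.887) except without that library, when its adjusted p was 0.0341 (up to 0.987 without another library).

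Within each library the share of 5-aminolevulinate synthase transcripts that came from the erythroid gene compares the pair without regard to their summed level. Control replicate 2, where both genes were high, had the highest share of the controls. This share of the FPKM was 36.9%, 30.3% and 30.0% after transport, against 14.4%, 19.7% and 13.996% in the controls. The groups did not overlap in it. The FPKM of alas1 were already apart, and those of the erythroid gene overlapped between the groups. The separation of this share is therefore no separate support. The ratio was chosen after the levels had been seen, and it is given without a test.

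**Figure D2:**
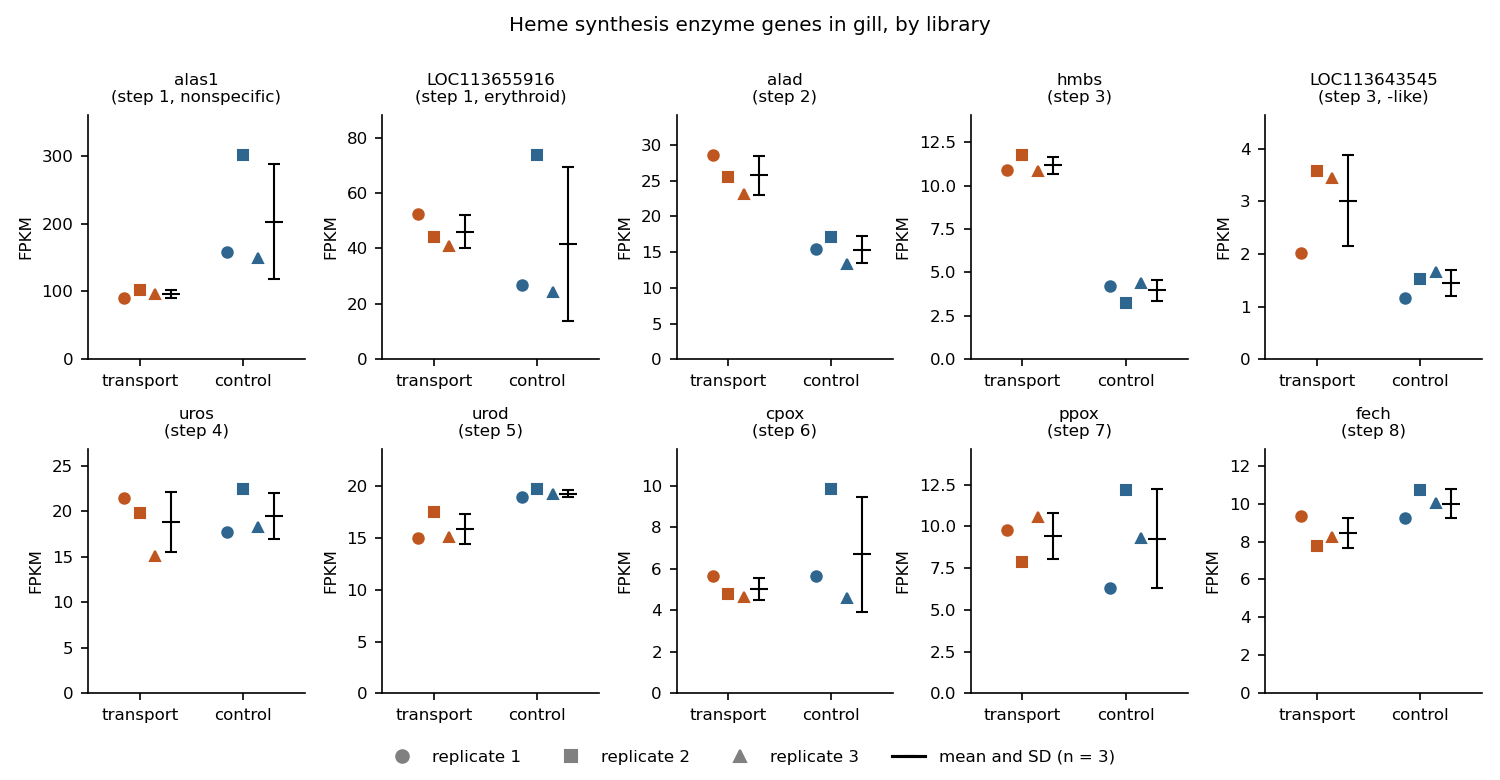
FPKM of the 10 heme synthesis enzyme genes in each library, in the order of the reaction steps, with transport on the left and control on the right of each panel; symbols mark replicates and bars the mean and SD (n = 3). The transport libraries all lie below the controls for alas1 and urod and above them for alad, hmbs and LOC113643545, and control replicate 2 is the highest point for alas1, LOC113655916 and cpox, among others.

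None of the enzymes after porphobilinogen deaminase was called by edgeR (urod alone at an unadjusted p under 0.05) or by DESeq2. uros, for the enzyme that closes the ring, was at 18.8 ± 3.28 FPKM after transport and 19.5 ± 2.54 FPKM in the controls (SD, n = 3 each). urod, for the decarboxylase that follows, was at 14.97, 17.5 and 15.1 FPKM after transport, against 19.0, 19.7 and 19.2 FPKM in the controls. Its groups did not overlap, yet the difference was small and not called (edgeR adjusted p = 0.165). The mitochondrial oxidase genes cpox and ppox averaged 5.03 ± 0.546 and 9.40 ± 1.39 FPKM after transport, and 6.70 ± 2.76 and 9.26 ± 2.95 FPKM in the controls. fech, for ferrochelatase, was at 9.32, 7.76 and 8.25 FPKM after transport, against 9.23, 10.7 and 10.01 FPKM in the controls. For cpox, ppox and fech the groups overlapped and no call was made (edgeR adjusted p = 0.408, 0.995 and 0.303). The span of cpox shares 2740 bases with another gene on the opposite strand, so its level is uncertain.

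Mitoferrins carry iron across the inner mitochondrial membrane to ferrochelatase and to iron-sulfur cluster assembly. The form that serves developing red cells in zebrafish and mouse is mitoferrin-1, encoded by slc25a37 (NW_020847808.1, 434066 to 445765). slc25a37 was at 9.43, 9.40 and 8.40 FPKM after transport, against 3.23, 6.07 and 4.11 FPKM in the controls. It rose by 1.00 on the log2 scale (SE 0.23) with an edgeR adjusted p of 0.0498, just inside the threshold. The adjusted p was 0.0525 with RLE scaling and 0.0528 with upper-quartile scaling, and up to 0.184 without 1 library. Mitoferrin-2, encoded by slc25a28 (NW_020848328.1, 3357052 to 3370248), was at 24.3, 25.1 and 24.4 FPKM after transport, against 22.1, 18.3 and 17.7 FPKM in the controls. These groups did not overlap, and the gene was not called (edgeR adjusted p = 0.123). Frataxin, a mitochondrial iron protein of cluster assembly encoded by fxn (NW_020848146.1, 474341 to 488835), was at 4.89, 7.72 and 6.50 FPKM after transport, against 3.12, 3.44 and 3.79 FPKM in the controls. It too separated the groups without a call (edgeR adjusted p = 0.0640), and DESeq2 called it (adjusted p = 0.0148).

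Hemoglobin transcripts were among the most abundant of the set and did not differ beyond their spread between libraries. Of the 12 hemoglobin subunit genes, 11 were tested and none was called, with 10 negative log2 fold changes, 1 positive and a median of -0.27. At an unadjusted edgeR p under 0.05, 1 was higher and 1 lower, against 12.3% and 12.7% of all genes. DESeq2 called hbz lower (adjusted p = 0.0104). The gene that edgeR did not test, LOC113656741, had 0, 19 and 80 estimated counts after transport, against 0, 0 and 0 in the controls. DESeq2 called it higher (adjusted p = 0.0166), with most of its counts in transport replicate 3. Summed over the 12 genes, the level was 11738, 8489.7 and 5054 FPKM after transport, against 7121, 13998 and 8794 FPKM in the controls. The groups overlapped widely, with the highest sum in control replicate 2 and the lowest in transport replicate 3. Hemoglobin took between 0.306% and 0.712% of the estimated counts after transport and between 0.429% and 0.845% in the controls.

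Of these genes, 9 lie in a block of 17152 bases on NW_020847992.1 (114707 to 131858), in which alpha-type genes on the minus strand alternate with beta-type genes on the plus strand. The neighbours in the block are 898 to 1912 bases apart. In the order of the scaffold the block runs from LOC113656772 (alpha-like) and LOC113656745 (beta-like) to LOC113656777 (beta) and hbz (zeta). The gene LOC113656741 lies apart on the same scaffold at 7588 to 8538. Reads shared between similar copies cannot be told apart with these values, so the levels of single alpha or beta genes are uncertain, and sums over them less so.

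The most abundant beta gene, LOC113656764 (NW_020847992.1, 120794 to 121641), was at 2209, 1568 and 1012 FPKM after transport, against 1316, 2693 and 1502 FPKM in the controls. The most abundant alpha gene, LOC113656803 (NW_020847992.1, 127481 to 128264), was at 1741, 1303 and 711 FPKM after transport, against 1304, 2863 and 1446 FPKM in the controls. Both follow the order of the summed level within each group. LOC113656777 (beta) was at 2389, 1562 and 838 FPKM after transport, against 1097, 2285 and 1589.9 FPKM in the controls. Transport replicate 1 was the highest library and transport replicate 3 the lowest. LOC113656765 (alpha-like) averaged 1124 ± 416 FPKM after transport and 1196 ± 269 FPKM in the controls (SD, n = 3 each). LOC113656766 (alpha-like) averaged 1165 ± 510.3 FPKM after transport and 1410.5 ± 492 FPKM in the controls. In both the SD was a large part of the mean. LOC113656772 (alpha-like) averaged 752 ± 178 FPKM after transport and 893 ± 291 FPKM in the controls. LOC113656802 (beta-like) averaged 836 ± 292 FPKM after transport and 952 ± 507 FPKM in the controls. The least abundant beta gene of the block was LOC113656745, at 88.3 ± 57.5 FPKM after transport and 105 ± 44.1 FPKM in the controls (SD, n = 3 each). The ratio of alpha-type to beta-type FPKM was 0.998, 1.09 and 1.08 after transport, against 1.37, 1.11 and 1.18 in the controls. The groups did not overlap in it, but transport replicate 2 (1.09) lay close to control replicate 2 (1.11). Control replicate 1 held the largest excess of alpha-type transcripts. The ratio was not tested.

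**Figure D3:**
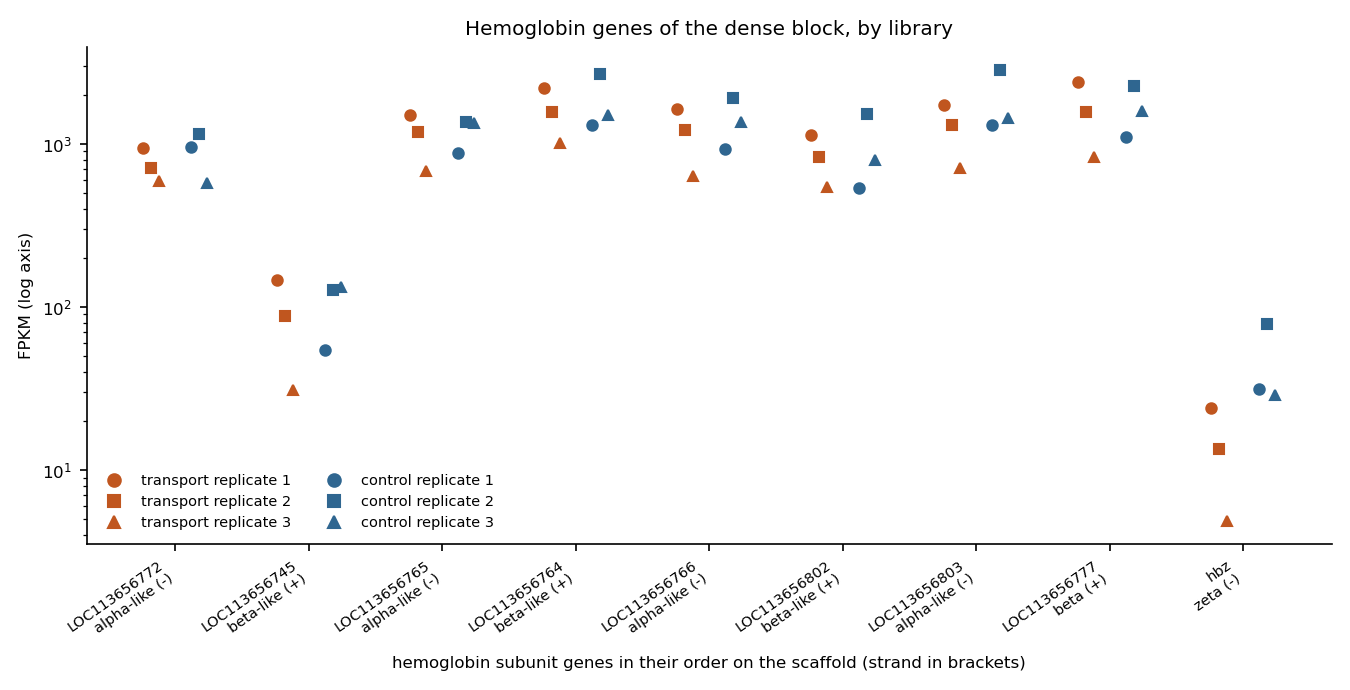
FPKM on a log axis of the 9 hemoglobin genes in the block on NW_020847992.1, in their order along the scaffold, with the 3 transport libraries left of the 3 controls for each gene. Control replicate 2 and transport replicate 1 are high and transport replicate 3 is low for most genes; for hbz all 3 transport libraries lie below all 3 controls.

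The zeta gene hbz (NW_020847992.1, 131058 to 131858), whose mammalian namesake encodes the alpha-type chain of embryonic hemoglobin, had its groups apart; whether it differed from its neighbours was not tested. hbz was at 24.1, 13.4 and 4.87 FPKM after transport, against 31.5, 78.2 and 28.9 FPKM in the controls. No transport library reached the lowest control. Its log2 fold change of -1.73 (SE 0.62) was not called (edgeR adjusted p = 0.143). As a share of all hemoglobin FPKM, hbz made up 0.206%, 0.158% and 0.0964% after transport, against 0.442%, 0.559% and 0.328% in the controls. The groups did not overlap in this share. The FPKM of hbz were already apart, and the hemoglobin sum overlapped between the groups. The separation of the share is therefore no separate support. The cathodic beta-like gene LOC113656778, which lies next to hbz (NW_020847992.1, 132707 to 133816) and was not in the set, was at 39.9, 20.3 and 11.04 FPKM after transport, against 27.4, 28.6 and 25.6 FPKM in the controls, with overlapping groups. Hemoglobin genes on other scaffolds were low. LOC113637085 (alpha-like) was at 1.22, 0.82 and 0.64 FPKM after transport, against 0.26, 0.63 and 0.30 FPKM in the controls (edgeR adjusted p = 0.186). It was the only one of the 11 tested with a positive log2 fold change. LOC113644596 (beta-like) was at 0.36, 0.86 and 1.68 FPKM after transport, against 0, 1.43 and 5.19 FPKM in the controls.

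The called heme genes were also set against the hemoglobin sum of their own library. Per 1000 FPKM of hemoglobin, hmbs was at 0.930, 1.38 and 2.14 FPKM after transport, against 0.594, 0.232 and 0.499 FPKM in the controls. For alad it was 2.43, 3.01 and 4.57 FPKM after transport, against 2.18, 1.22 and 1.52 FPKM in the controls. For slc25a37 the same quantity was 0.803, 1.11 and 1.66 FPKM after transport, against 0.454, 0.434 and 0.467 FPKM in the controls. In all 3 genes every transport library was above every control. These genes were taken because they were called higher, and their FPKM were already apart. The hemoglobin sum averaged 8427 FPKM after transport and 9971 FPKM in the controls. The separation of these ratios is therefore no separate support, and the part of red cells in it was not tested. Among the controls slc25a37 kept an almost constant ratio to hemoglobin, whereas after transport the ratio was highest in replicate 3, the library with the least hemoglobin. The erythroid 5-aminolevulinate synthase LOC113655916 stood at 4.48, 5.22 and 8.11 FPKM per 1000 FPKM of hemoglobin after transport, against 3.76, 5.26 and 2.76 FPKM in the controls, and here the groups overlapped.

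**Figure D4:**
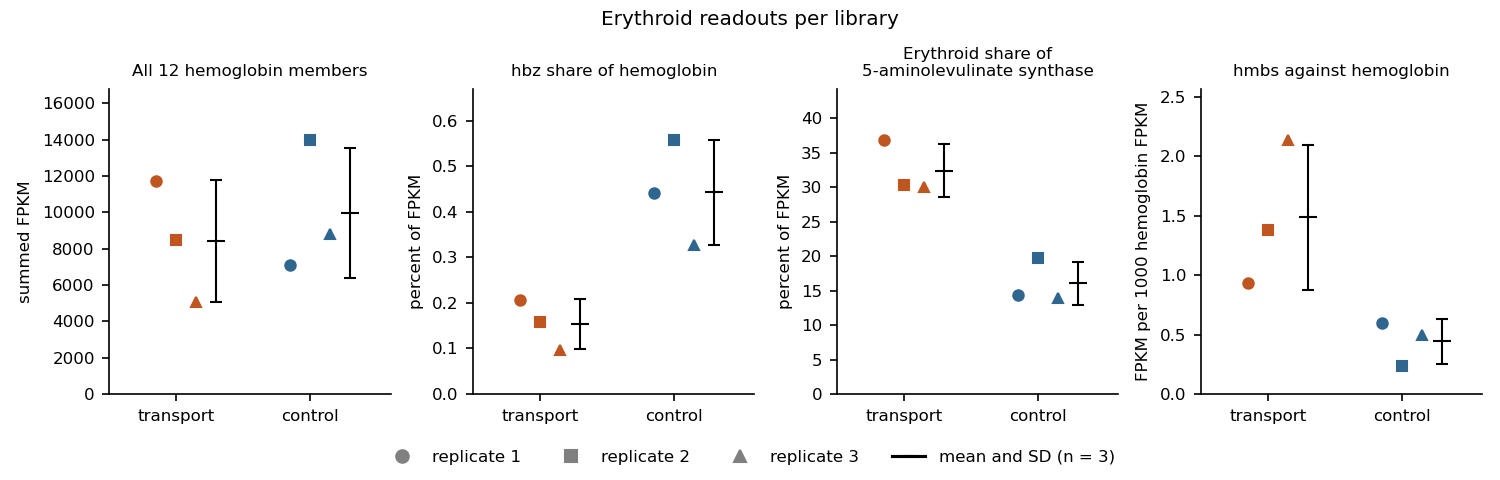
Summed FPKM of the 12 hemoglobin genes, hbz as a percentage of it, the erythroid gene as a percentage of 5-aminolevulinate synthase FPKM, and hmbs per 1000 hemoglobin FPKM, for each library, with transport left of control; bars give the mean and SD (n = 3). The groups overlap for the hemoglobin sum and do not overlap for the 3 ratios.

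Genes of erythrocytes outside the set were described from a list of 30 symbols, of which 24 were found by symbol or product, as 29 genes. None of the 27 tested was called by edgeR, with 12 positive and 15 negative log2 fold changes and a median of -0.07. At an unadjusted edgeR p under 0.05, 4 (14.8%) were higher and 6 (22.2%) lower, against 12.3% and 12.7% of all genes. DESeq2 called 4 (14.8%) higher and 3 (11.1%) lower, against 7.03% and 7.69% of all genes. The higher genes were LOC113645908, tal1, LOC113639535 and LOC113644417. The lower genes were rhag, LOC113662208 and the aqp1 gene LOC113635000. LOC113645908, annotated as erythroid transcription factor (the GATA1 protein), was at 13.9, 11.2 and 10.2 FPKM after transport, against 5.76, 8.55 and 6.08 FPKM in the controls (edgeR adjusted p = 0.0723). tal1, a regulator of blood formation, was at 9.03, 8.50 and 6.49 FPKM after transport, against 3.85, 4.90 and 2.57 FPKM in the controls (edgeR adjusted p = 0.0581). The erythropoietin receptor gene LOC113639535 was at 27.0, 21.6 and 15.7 FPKM after transport, against 8.81, 15.7 and 6.84 FPKM in the controls (edgeR adjusted p = 0.116). Other regulators of the list varied in direction. lmo2, a partner of tal1, was at 14.3, 14.5 and 12.8 FPKM after transport, against 13.9, 22.9 and 22.3 FPKM in the controls. The log2 fold changes of zfpm1 and nfe2 were -0.19 and 0.05, and those of gfi1b and hemgn were 0.43 and 0.38. gfi1b and hemgn overlapped between the groups and were not called (edgeR adjusted p = 0.378 and 0.481). For tal1 and LOC113645908 the groups did not overlap, and in the receptor gene control replicate 2 stood just above transport replicate 3.

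Membrane genes of the erythrocyte list were as mixed. The kell blood group glycoprotein gene LOC113644417 was at 4.32, 3.23 and 2.86 FPKM after transport, against 1.55, 2.26 and 1.23 FPKM in the controls (edgeR adjusted p = 0.0775), with all transport libraries above the controls. The Rh-associated glycoprotein gene rhag was at 83.8, 81.7 and 75.0 FPKM after transport, against 96.0, 97.1 and 106 FPKM in the controls (edgeR adjusted p = 0.0769). Of 2 genes annotated as band 3 anion exchange protein, LOC113638122 was at 20.1, 16.2 and 9.76 FPKM after transport, against 15.4, 38.0 and 16.6 FPKM in the controls. The other, LOC113662208, was at 61.2, 68.3 and 73.5 FPKM after transport, against 99.6, 80.2 and 118 FPKM in the controls. LOC113638122 followed the order of the hemoglobin sum within each group, and LOC113662208 did not. Whether rhag and LOC113662208 stand for red cells in whole gill was not tested. Summed over the 29 genes the level was 405 to 420.4 FPKM after transport and 403 to 472 FPKM in the controls. A large part of this sum came from rhag, LOC113662208 and ca2. ca2, which averaged 71.2 FPKM after transport and 61.4 FPKM in the controls, was also on the gill epithelium and ionocyte list. Whether the sum follows the amount of red cells was not tested.

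Ferritin, the hollow shell in which cells store iron, showed its difference in the middle-subunit genes. A middle (M) chain is found in fish and amphibians beside the heavy chain, which oxidizes iron. LOC113654112 (NW_020847957.1, 46628 to 48072), ferritin middle subunit, was at 1184, 1270.0 and 1390.1 FPKM after transport, against 782, 787 and 572 FPKM in the controls. It rose by 0.83 on the log2 scale (SE 0.14, edgeR adjusted p = 0.0242). LOC113654113 (NW_020847957.1, 40660 to 48016), annotated as ferritin middle subunit-like, was at 545, 493 and 494 FPKM after transport, against 323, 402 and 337 FPKM in the controls. It rose by 0.51 (SE 0.11, edgeR adjusted p = 0.0435). In both genes every transport library lay above every control.

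These genes share their place in the genome. LOC113654113 overlaps LOC113654112 by 1389 bases on the same strand and another middle-subunit gene, LOC113654114 (NW_020847957.1, 41188 to 47681), by 6494 bases on the opposite strand. The sources do not state that the counting used strand, so the levels of the 3 cannot be fully separated, and the 2 calls are not independent. LOC113654114 itself was low, at 5.0, 5.99 and 3.25 FPKM after transport, against 2.19, 3.57 and 2.41 FPKM in the controls (edgeR adjusted p = 0.220). Summed over the 3 genes, middle-subunit ferritin was at 1734, 1769 and 1888 FPKM after transport, against 1107, 1193 and 911 FPKM in the controls. The calls of LOC113654113 survived leaving out 1 library in only 1 of 6 cases, and those of LOC113654112 in 3 of 6 (edgeR adjusted p up to 0.169 and 0.129).

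The heavy-chain genes showed no such separation. fth1 (NW_020847804.1, 220796 to 224250) was at 669, 626 and 622 FPKM after transport, against 498, 658 and 564 FPKM in the controls (edgeR adjusted p = 0.529). LOC113634203 (NW_020848144.1, 317082 to 318003), a heavy subunit-like gene, was at 231, 225 and 216 FPKM after transport, against 199, 250.2 and 128 FPKM in the controls (edgeR adjusted p = 0.632). In both genes the groups overlapped, with control replicate 2 the highest of the controls. The light chain-like gene LOC113659889 was at 15.4 ± 2.57 FPKM after transport and 18.5 ± 3.15 FPKM in the controls (SD, n = 3 each). Middle-subunit genes made up 65.4%, 67.2% and 68.9% of all ferritin FPKM after transport, against 60.6%, 56.3% and 56.2% in the controls, a share in which the groups did not overlap. It rests mainly on LOC113654112 and LOC113654113, which were called higher with FPKM already apart. The separation of this share is therefore no separate support.

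**Figure D5:**
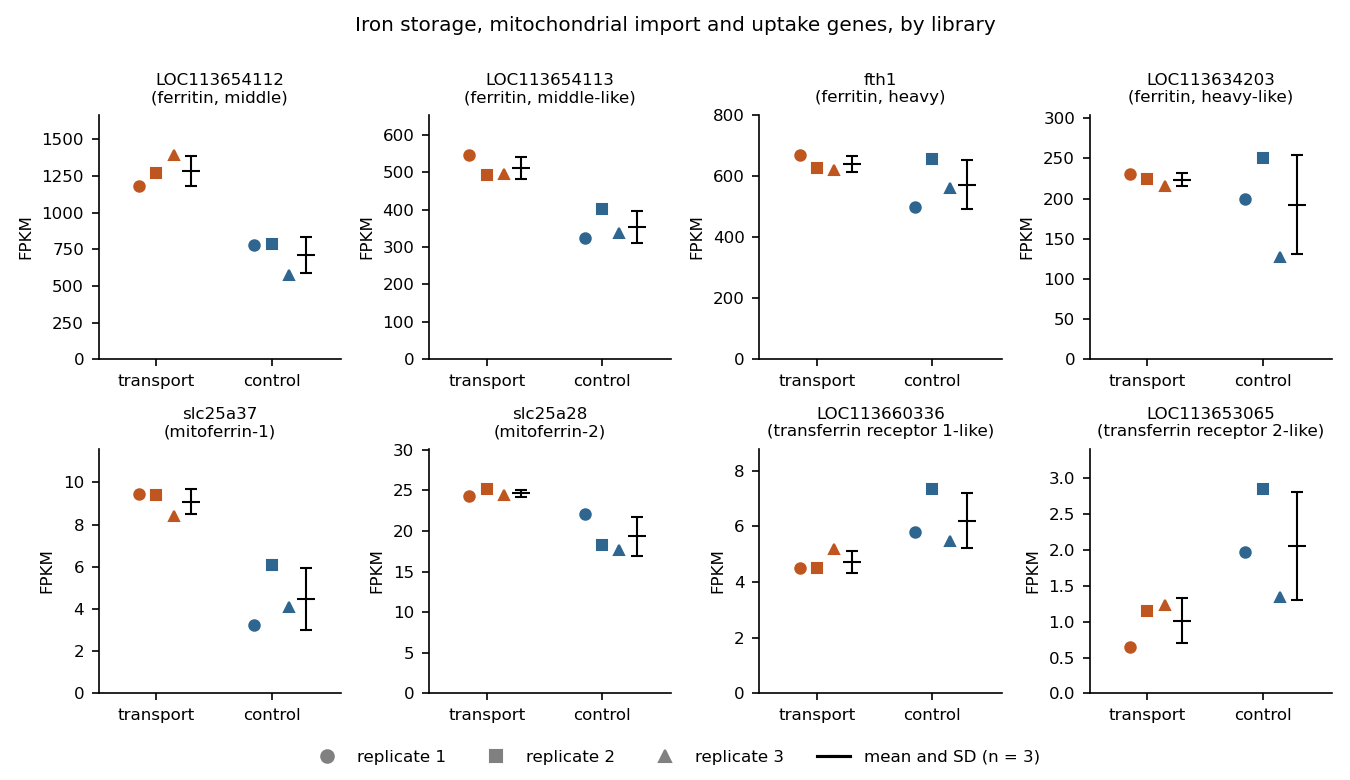
FPKM of 4 ferritin genes (top) and of the 2 mitoferrin and 2 of the 4 transferrin receptor genes (bottom) in each library, transport left of control, with mean and SD (n = 3). For both middle-subunit ferritins and both mitoferrins all transport libraries lie above the controls, the heavy-chain genes overlap, and for both receptors shown all transport libraries lie below the controls.

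Transferrin receptors, which take up iron-loaded transferrin at the cell surface, all had negative log2 fold changes, and none of the 4 was called by edgeR (2 were lower at an unadjusted p under 0.05) or by DESeq2. Of all genes tested, 12.7% were lower at that unadjusted p. LOC113653065 (NW_020847933.1, 456765 to 465982), annotated as receptor protein 2, which senses iron in mammalian liver and erythroid cells, was at 0.65, 1.15 and 1.23 FPKM after transport, against 1.97, 2.84 and 1.34 FPKM in the controls (edgeR adjusted p = 0.137). LOC113660336 (NW_020848038.1, 418120 to 443269), a receptor 1-like gene, was at 4.49, 4.50 and 5.17 FPKM after transport, against 5.78, 7.32 and 5.48 FPKM in the controls (edgeR adjusted p = 0.156). Neither pair of groups overlapped. The span of LOC113660336 shares 10018 bases on the same strand with LOC113660335, annotated as activated CDC42 kinase 1-like, so its level is uncertain. The neighbouring receptor 1-like genes LOC113650136 and LOC113650137 on NW_020847885.1 averaged 17.2 ± 2.43 and 10.5 ± 1.29 FPKM after transport, and 18.5 ± 10.6 and 12.7 ± 1.39 FPKM in the controls. Of the first, control replicate 2 held 30.8 FPKM against 11.9 and 12.8 FPKM in the other controls.

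The ligand side was almost silent in the gill. The serotransferrin genes LOC113636912 and LOC113642764 were listed at 0 in all libraries, and LOC113636908 did not exceed 0.18 FPKM. LOC113636907 was at 0.14, 0.03 and 0.08 FPKM after transport, against 2.13, 0.09 and 0.03 FPKM in the controls, so that only control replicate 1 stood out. Melanotransferrin, meltf, was at 0.16, 0.34 and 0.10 FPKM after transport, against 0.02, 0.10 and 0.07 FPKM in the controls. Hepcidin (hamp, NW_020847818.1, 726084 to 728177), a peptide made mainly in liver, had 15, 27 and 21 estimated counts after transport, against 0, 0 and 4 in the controls. All transport libraries were above all controls, but these are few fragments, and the gene was not called by edgeR (adjusted p = 0.163) or DESeq2 (adjusted p = 0.111), while limma on log2(FPKM + 1) called it.

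Iron oxidases, which load iron onto transferrin, did not differ beyond their spread. LOC113660697, annotated as hephaestin-like protein 1, averaged 20.3 ± 1.93 FPKM after transport and 18.65 ± 2.91 FPKM in the controls (SD, n = 3 each). LOC113660123, with the same product, was at 11.4, 7.66 and 6.36 FPKM after transport, against 9.47, 9.16 and 8.37 FPKM in the controls. Ceruloplasmin, cp, did not exceed 0.51 FPKM, and the remaining hephaestin-like genes, LOC113644015 and LOC113644212, were too low to test.

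Among the genes of heme breakdown none of 7 was called by edgeR or DESeq2. At an unadjusted edgeR p under 0.05, where 12.3% of all genes tested were higher, 1 of the 7 was higher. That gene, LOC113634506 (NW_020848156.1, 700438 to 702722), is annotated as heme oxygenase-like, the enzyme class that opens the heme ring and frees its iron. It was at 21.0, 17.0 and 18.5 FPKM after transport, against 14.3, 15.8 and 11.6 FPKM in the controls (edgeR adjusted p = 0.158). Its neighbours LOC113634503 and LOC113634505 and the constitutive gene hmox2 overlapped between the groups, at 1.47 ± 0.565, 5.79 ± 0.675 and 3.05 ± 0.0924 FPKM after transport and 0.730 ± 0.471, 5.72 ± 1.39 and 3.56 ± 0.749 FPKM in the controls. The gene blvra encodes biliverdin reductase A, which turns the green product of heme oxygenase into bilirubin. blvra and blvrb averaged 7.01 ± 0.742 and 92.9 ± 19.1 FPKM after transport, and 7.87 ± 1.99 and 84.5 ± 18.8 FPKM in the controls. LOC113637654, annotated as flavin reductase (NADPH)-like as blvrb is annotated flavin reductase (NADPH), was at 14.5 ± 1.64 FPKM after transport and 13.3 ± 0.975 FPKM in the controls.

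Genes that attach or convert heme for the respiratory chain had 4 of 5 log2 fold changes positive. None was called by edgeR or DESeq2, and 2 were higher at an unadjusted edgeR p under 0.05, as were 12.3% of all genes tested. LOC113642416, a cytochrome c-type heme lyase gene, was at 6.84, 9.13 and 8.57 FPKM after transport, against 4.32, 4.65 and 6.09 FPKM in the controls (edgeR adjusted p = 0.107). The second lyase gene, LOC113644185, was at 16.2, 17.6 and 20.1 FPKM after transport, against 16.1, 12.8 and 11.4 FPKM in the controls (edgeR adjusted p = 0.189). In neither lyase gene did the groups overlap, though for the second the lowest transport library was almost level with control replicate 1. The heme A synthesis genes LOC113651618 (protoheme IX farnesyltransferase) and LOC113655462 (COX15) averaged 8.27 ± 1.12 and 10.4 ± 1.81 FPKM after transport, and 8.67 ± 2.74 and 8.75 ± 1.46 FPKM in the controls. A partial farnesyltransferase model, LOC113634063, was listed at 0 in 2 controls and did not exceed 3.68 FPKM.

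The remaining genes of pathway 00860 belong to neighbouring reactions. Of the 8, including fxn, 7 had positive log2 fold changes and none was called by edgeR. The most abundant was LOC113644341, whose product is transmembrane protein 56-B-like although its KEGG entry is that of heme lyase. It was at 55.2, 49.2 and 48.6 FPKM after transport, against 43.3, 38.7 and 38.7 FPKM in the controls (edgeR adjusted p = 0.0867, DESeq2 adjusted p = 0.0476). A pair of cobalamin adenosyltransferase genes, LOC113638517 and LOC113647475, mirrored each other in the controls. LOC113638517 had 6.92, 12.2 and 0.97 FPKM there and LOC113647475 had 13.8, 0.83 and 25.1 FPKM. After transport they were steadier, at 4.0, 4.89 and 5.92 FPKM and at 22.0, 21.8 and 15.2 FPKM. Summed, the pair held 26.0, 26.7 and 21.2 FPKM after transport, against 20.8, 13.02 and 26.1 FPKM in the controls. LOC113647475 lies wholly within the span of LOC113647472, annotated as a class I histocompatibility antigen, sharing 2333 bases on the opposite strand. The levels of LOC113647475 and of the pair are therefore uncertain. The lysosomal gene gusb averaged 8.74 ± 0.536 FPKM after transport and 7.24 ± 2.41 FPKM in the controls, and LOC113639588 and hdhd3 averaged 8.02 ± 0.468 and 2.51 ± 0.0814 FPKM after transport and 6.24 ± 1.61 and 1.77 ± 0.523 FPKM in the controls. LOC113642892 did not exceed 0.24 FPKM.

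Over the whole set, transport and control FPKM were fully apart in 20 of the 59 tested genes, or 33.9%, against 32.7% of all genes tested. Of these, 15 genes (25.4%) were higher after transport, against 17.6% of all genes, and 5 (8.47%) were lower, against 15% of all genes. Over both directions the share of separated genes in the set thus lies near that of all genes.

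Outside the set, 3 further lists of iron and heme genes were read beside it, together with the erythrocyte list 86 tested genes in all. None of the 86 was called by edgeR, while 16 (18.6%) were higher and 9 (10.5%) lower at an unadjusted edgeR p under 0.05, against 12.3% and 12.7% of all genes. DESeq2 called 9 higher (10.3%) and 5 lower (5.75%), against 7.03% and 7.69% of all genes. In iron-sulfur cluster assembly, the other main use of mitochondrial iron, 19 of 23 log2 fold changes lay above 0, with a median of 0.24. Over all genes tested, 10418 of 20771 lay above 0. The summed level of the list was 492, 532 and 567 FPKM after transport, against 453, 428 and 395 FPKM in the controls. This sum averaged 530 FPKM after transport and 426 FPKM in the controls, of which hspa9 held 83.8 and 50.1 FPKM. The member nearest to a call by edgeR was the chaperone gene hspa9, at 73.9, 77.7 and 99.8 FPKM after transport, against 52.8, 57.2 and 40.3 FPKM in the controls (edgeR adjusted p = 0.0538, DESeq2 adjusted p = 0.0022). Among 16 tested genes of iron uptake, export and regulation, 10 values were positive with a median of 0.12. The genes of the iron regulatory proteins, which control ferritin and transferrin receptor messages, lay on opposite sides. aco1 was at 18.6, 17.3 and 16.1 FPKM after transport, against 13.8, 12.4 and 12.5 FPKM in the controls (edgeR adjusted p = 0.0562). ireb2 was at 9.31, 7.57 and 8.47 FPKM after transport, against 11.6, 12.1 and 10.7 FPKM in the controls (edgeR adjusted p = 0.0630). Neither gene was called by edgeR, and in neither did the groups overlap. DESeq2 called both (adjusted p = 0.0158 for aco1 and 0.016 for ireb2). Of 21 tested genes of heme transport and breakdown, 14 had positive values with a median of 0.23.

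Markers of other blood and tissue cells were read for the same libraries. The summed FPKM of 25 macrophage genes was 196, 171 and 141 after transport, against 204, 230.3 and 251 in the controls, with all transport libraries below the controls. Of its 18 tested genes 7 had positive and 11 negative log2 fold changes, with a median of -0.07. By edgeR 1 of the 18 was called, and it was lower, as were 3.46% of all genes tested. That gene, the perforin-type gene LOC113656273 (mpeg1), was at 17.7, 15.3 and 15.01 FPKM after transport, against 26.4, 27.1 and 29.0 FPKM in the controls (edgeR adjusted p = 0.0131). In a second mpeg1 gene, LOC113656292, the groups overlapped (edgeR adjusted p = 0.265). For 7 thrombocyte genes the sum was 64.9, 54.3 and 51.2 after transport, against 45.2, 54.2 and 47.1 in the controls. Of 20 tested genes of gill epithelium and ionocytes, 10 had positive and 10 negative log2 fold changes, with a median of 0.09. By edgeR 1 of the 20 was called higher and 2 lower, against 3.23% and 3.46% of all genes tested. The sodium pump gene LOC113648762 was higher, and the secretory cell gene agr2 and the ammonia channel gene rhbg were lower (edgeR adjusted p = 0.0242, 0.0182 and 0.0448). The summed erythrocyte, muscle and hemoglobin levels overlapped between the groups, as given above with the limit of the erythrocyte sum. The part of these cell types in the values of hmbs, alad, slc25a37 and the ferritins was not tested.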

How the data were processed

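The authors deposited 1 table with gene counts and FPKM for 6 gill libraries, per the file headers. HISAT and StringTie are named in the submitters' processing notes. Versions, genome build and strand handling are not given in the sources used here. Although whole, the counts the authors deposited were handled as estimated counts (expected counts): in transport replicate 1, 476 genes had the value 4, against 110 with 3 and 69 with 5, and the other libraries were alike. If 1 fragment is worth about 4 units, real depth is lower and counting error larger than the totals imply. FPKM values were used as the authors deposited them.

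The difference between transport and control was tested with edgeR 4.0.16 in R 4.3.3: filterByExpr (minimum count 10, minimum total 15), TMM scaling, the quasi-likelihood F test (two-sided, group as the only term), and Benjamini-Hochberg adjustment over 20771 genes at a threshold of 0.05. Standard errors are |log2 fold change| over the root of F. DESeq2 1.42.0 and limma 3.58.1 on log2(FPKM + 1) served as alternatives. The edgeR step was tested on simulated counts and the limma step on simulated normal values. DESeq2 was not tested on simulated data.

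Called genes were named with all values, as were the tested heme synthesis, hemoglobin, ferritin, transferrin, mitoferrin and hepcidin genes, and others by level. Of the related lists, gata1, slc4a1 and epor genes were named by rule, and tal1, lmo2, zfpm1, nfe2, rhag, LOC113644417, aco1, ireb2, hspa9, LOC113656273, LOC113648762, agr2 and rhbg after their values were seen. LOC113635000, LOC113656292, gfi1b, hemgn and ca2 were also named after their values were seen. Members, lists and ratios were chosen with earlier results of these data known, and list genes without a symbol were matched by product name after the table was seen.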

Additional observations from a re-analysis of the deposited data

How the results depend on the processing

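Each of the 5 called genes kept its direction in all 17 alternatives (log2 fold changes from 0.43 to 1.56), and 58 of the 85 fits kept the call. The count of genes of the set called higher (5) was between 4 and 6 under other scalings, filters, limma settings and counts divided by 4, 9 with DESeq2, and from 0 to 6 when 1 library was left out. The count called lower (0) was 2 with DESeq2, 1 with counts divided by 4, and from 0 to 1 without 1 library. Over all genes, 671 higher and 718 lower became 1545 and 1692 with DESeq2, and from 2 to 659 higher and from 1 to 839 lower without 1 library. The related lists (0 and 0) gave 9 higher and 5 lower with DESeq2, 3 higher with counts divided by 4, 1 with limma on log2(FPKM + 0.1), 1 with quantile-normalized values, 3 with a mean FPKM of at least 1, and from 0 to 3 higher and 0 to 2 lower without 1 library. The causes were not tested.

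The labels do not say whether replicate numbers pair the libraries. The deviations of same-numbered libraries from their group means correlated at -0.0735, -0.0296 and -0.0441. Those of differently numbered libraries correlated at -0.0262 to 0.0647. Deviations within a group of 3 sum to 0, which ties these values to each other. No same-numbered libraries correlated positively, and whether a pairing existed was not tested. With the replicate block, 0 genes of the set were called, and 9 higher and 5 lower over all genes. hmbs then had an adjusted p of 0.0667. Leaving hemoglobin out of the scaling changed none of the counts. Genes with few estimated counts, such as hamp, are limited by depth.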
